A study of Homo sapiens with 8 samples.

Results

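The core of the human translation initiation factor eIF3 is an octamer of subunits that carry a PCI or an MPN domain, and its 8 mRNAs were followed through a survey of RNA bound by another subunit, eIF3d. The members were taken by gene symbol: EIF3A, EIF3C, EIF3E, EIF3K, EIF3L and EIF3M of the PCI class and EIF3F and EIF3H of the MPN class. All 8 were found among the 57978 genes listed for every library, and all 8 were among the 10100 genes with a mean of at least 1 RPKM that were tested. RPKM is the number of reads divided by exon length and by the size of the library.

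The cells were HEK293T, a human embryonic kidney line carrying the SV40 large T antigen, and in all groups they expressed eIF3d with a site for TEV protease. They spent 48 h in complete medium, which is DMEM with 10% fetal bovine serum, or in DMEM without glucose and with 10% dialyzed serum. Ultraviolet light of 254 nm crosslinked RNA to protein, eIF3d was pulled down through an HA tag on magnetic beads and was freed from the rest of eIF3 by TEV protease. The 4 groups, each of 2 libraries of polyadenylated RNA, were the input and the immunoprecipitate (IP) of each medium. Replicates are numbered in the labels with no word on separate cultures, so a p-value here compares a difference with what may be technical spread alone. A mock IP from untagged cells was not analysed here, and the members therefore have no background value for the beads.

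The core mRNAs did not move as 1 group. EIF3A stood higher in the IP than in the input in both media, by 5.48-fold and 3.70-fold. Of the other 7 members, 4 were lower in the IP of complete medium and 6 in the IP without glucose, where 30.1% and 32.1% of all tested genes were called lower. With EIF3A, 5 of 8 members were called either way in complete medium, close to the 60.2% of all tested genes. On RPKM as deposited, with no scaling between libraries, 3 members were lower in complete medium and none without glucose, where 4 were higher. In the input, EIF3E and EIF3M rose without glucose by 19.4-fold and 7.0-fold, and passed under every alternative. EIF3H, EIF3L and EIF3F rose by smaller amounts, and all 3 calls were lost on RPKM as deposited, under the other scalings and without either 1 of the glucose-free inputs. No member passed the test for a change of its IP to input ratio between the media. These changes are relative to the median gene of each library, a point taken up with the levels. The folds are computed with 1 added to each value, which understates rises from low levels such as those of EIF3E and EIF3M.

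As background, eIF3 is the largest initiation factor of mammalian cells. It binds the small ribosomal subunit, helps to recruit mRNA and keeps the ribosomal subunits apart before initiation. The PCI and MPN subunits form a body that is shared in its outline with the lid of the proteasome and with the COP9 signalosome, while EIF3B, EIF3G and EIF3I form a mobile module and EIF3D sits at the periphery, where it can hold the cap of some mRNAs. EIF3A is the largest subunit and, with EIF3C, nucleates assembly. Several eIF3 mRNAs belong to the class that begins with a C followed by a run of pyrimidines at the cap, the TOP mRNAs, whose translation follows nutrient supply through mTORC1 and LARP1.

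The starts of the members' transcripts are shown because that first run of pyrimidines is the sequence feature best known to tie mRNAs of the translation machinery to nutrients. RefSeq sequence of GRCh38.p14 was at hand for 4 members (EIF3C, EIF3F, EIF3K and EIF3M). Each line runs from 10 bases before the annotated start to 20 bases from it, 30 in all, on the gene's strand, and capitals mark a run of at least 5 C or T that begins with a C at the start itself.
EIF3F: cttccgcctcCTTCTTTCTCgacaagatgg
EIF3K: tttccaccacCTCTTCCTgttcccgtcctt
EIF3M: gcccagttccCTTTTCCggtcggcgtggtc
EIF3C: tcccacccccgtggcaggcagccctgcacc
The windows lie at chr11:7987327-7987356, chr19:38619178-38619207, chr11:32583821-32583850 and chr16:28688548-28688577, all on the plus strand. Runs of 10, 8 and 7 pyrimidines opened EIF3F, EIF3K and EIF3M, and the annotated start of EIF3C is a G with no such run. Of 35116 starts searched in the same way on their own strand, 1429 (4.069%) opened with a run of this kind. The match describes 1 annotated start for each gene, and the starts used in these cells were not measured.

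In the GENCODE 29 annotation of GRCh38, EIF3A spans chr10:119033670-119080823 on the minus strand and EIF3C chr16:28688558-28735730 on the plus strand. EIF3E and EIF3H lie on the minus strand of chromosome 8, at 108201216 to 108435333 and 116642130 to 116766925. EIF3K spans chr19:38619082-38636955, EIF3L chr22:37848868-37889407, EIF3M chr11:32583798-32606262 and EIF3F chr11:7970251-8001862, all on the plus strand. The summed length of all annotated exons of a gene turned the RPKM values into whole reads. That length was 1.71 times the coding length for EIF3A and 8.81 times for EIF3F, with the other members between, so levels compared between members rest on exon models that exceed the coding part by unequal amounts.

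Some of the reads may belong to other genes. EIF3C has a near-identical neighbour, EIF3CL, and the reads given to EIF3C were 0.979 to 1.07 times those given to EIF3CL in the 8 libraries, so the pair cannot be told apart and EIF3C stands for both. The pseudogene EIF3FP3 held reads equal to 6.47% to 13.9% of those of EIF3F, and EIF3LP2 held 2.88% to 20.5% of those of EIF3L. EIF3FP1 and EIF3EP1 reached 1.57 and 1.01 RPKM in their highest library. Of 11 copies of members in the tables, 6 were at or under 1 RPKM in every library. With the reads of all copies added to their parents, no member's call changed in any comparison. For EIF3C this could hardly change a ratio, since EIF3CL held nearly equal reads in every library. EIF3A, EIF3H and EIF3M had no copy to add. EIF3L shares 51.8% of its exon bases with other genes, 1767 of them with AL022311.1 on the same strand, and EIF3M shares 9.99% with CCDC73 on the other strand. Whether counting used strand is not given in the sources used here, so the values of EIF3L and EIF3M may hold reads of those neighbours.

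Recovered totals were 31708998 and 19490714 reads for the inputs of complete medium and 24596456 and 21216047 for its IPs. Without glucose they were 33996875 and 43400905 for the inputs and 8656921 and 12034186 for the IPs. Mitochondrial rRNA took 26.8% to 50.7% of input reads and 0.399% to 10.6% of IP reads, and the median RPKM of the tested genes was 0.833 to 1.75 in the inputs and 4.55 to 6.49 in the IPs. Each library was therefore scaled to 1 common median over the tested genes, by factors of 1.87 to 3.93 for inputs and 0.505 to 0.720 for IPs, and values so treated are called scaled RPKM. Complete IP replicate 2 stood apart: it held 10.6% mitochondrial rRNA against 1.26% in replicate 1, and the replicates of this group correlated across genes with r = 0.898, against 0.957 to 0.994 in the other groups. Each medium has a table of its own, and any difference in how the tables were made cannot be told apart from the medium. Of 5 genes typical of embryonic kidney or of this line (PAX2, LHX1, NEFM, NEFL, VIM), 3 to 5 reached 1 RPKM in each library. NEFM, NEFL and VIM did so in every library, while PAX2 and LHX1 were under 1 RPKM in every input. Of 14 markers of other cell types, 0 to 2 reached 1 RPKM in each library. Among these HBA1 was at 10.0 RPKM in complete input replicate 1 and COL1A1 at 6.24 in complete IP replicate 1. EIF3D, whose protein was tagged, held 36.5 and 50.3 RPKM in the complete inputs against 317 and 211 in the IPs, and 34.3 and 35.0 without glucose against 147 and 196 in the IPs. No sequence of the transgene was analysed here, so reads of the tagged copy and of the native gene were not separated.

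The members' RPKM as deposited spanned a wide range in the inputs of complete medium. EIF3K, the smallest core subunit, was highest with 62.2 and 69.8, and EIF3C followed with 13.6 and 31.7. EIF3F, an MPN subunit, held 14.7 and 14.4 RPKM, inside the range of EIF3C. EIF3L and EIF3H overlapped each other at 8.30 and 9.96 against 9.55 and 8.21, and EIF3H also overlapped EIF3A at 5.07 and 9.51. EIF3M, a PCI subunit that forms a module with EIF3F and EIF3H, was low at 0.943 and 1.17, and EIF3E was lowest at 0.347 and 0.171. Those 2 EIF3E values rest on 66 and 20 reads, with exact 95% Poisson intervals of 0.268 to 0.441 and 0.104 to 0.264 RPKM that cover counting error only. The highest member was 179 and 409 times the lowest in these inputs.

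Without glucose the input levels were much more even. EIF3K held 48.9 and 51.0 RPKM, EIF3F 14.8 and 15.3, EIF3H 11.4 and 12.5, EIF3C 11.6 and 11.1 and EIF3L 10.4 and 10.6. EIF3E reached 7.13 and 8.66, EIF3M 5.35 and 6.50, and EIF3A was now lowest with 4.64 and 4.95. Only EIF3H and EIF3C, neighbours in this order, overlapped. The highest member was 10.5 and 10.3 times the lowest, and EIF3K alone gave 42.8% and 42.3% of the members' summed RPKM, against 54.3% and 48.1% in complete medium.

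In the IP the order was another. EIF3A led with 93.8 and 177 RPKM in complete medium and 123 and 136 without glucose. EIF3C came next in complete medium with 45.8 and 41.1, and held 44.9 and 46.1 without glucose, there behind EIF3K with 55.9 and 66.9. EIF3K in the complete IPs was at 17.7 and 16.7. The other members of the complete IPs were at 7.25 and 6.57 (EIF3L), 5.42 and 5.56 (EIF3F), 3.22 and 5.23 (EIF3H), 0.646 and 2.82 (EIF3M) and 0.162 and 2.24 (EIF3E). In the glucose-free IPs they were at 23.4 and 23.0 (EIF3E), 19.2 and 24.7 (EIF3F), 18.8 and 16.9 (EIF3L), 9.86 and 10.3 (EIF3H) and 7.59 and 8.65 (EIF3M). EIF3A made up 53.9% and 68.8% of the members' summed RPKM in the complete IPs and 40.6% and 40.9% without glucose, against 4.06% to 6.56% in the inputs. EIF3E and EIF3M differed most between the complete IP replicates, and both were higher in replicate 2, the library that stood apart.

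**Figure D1:**
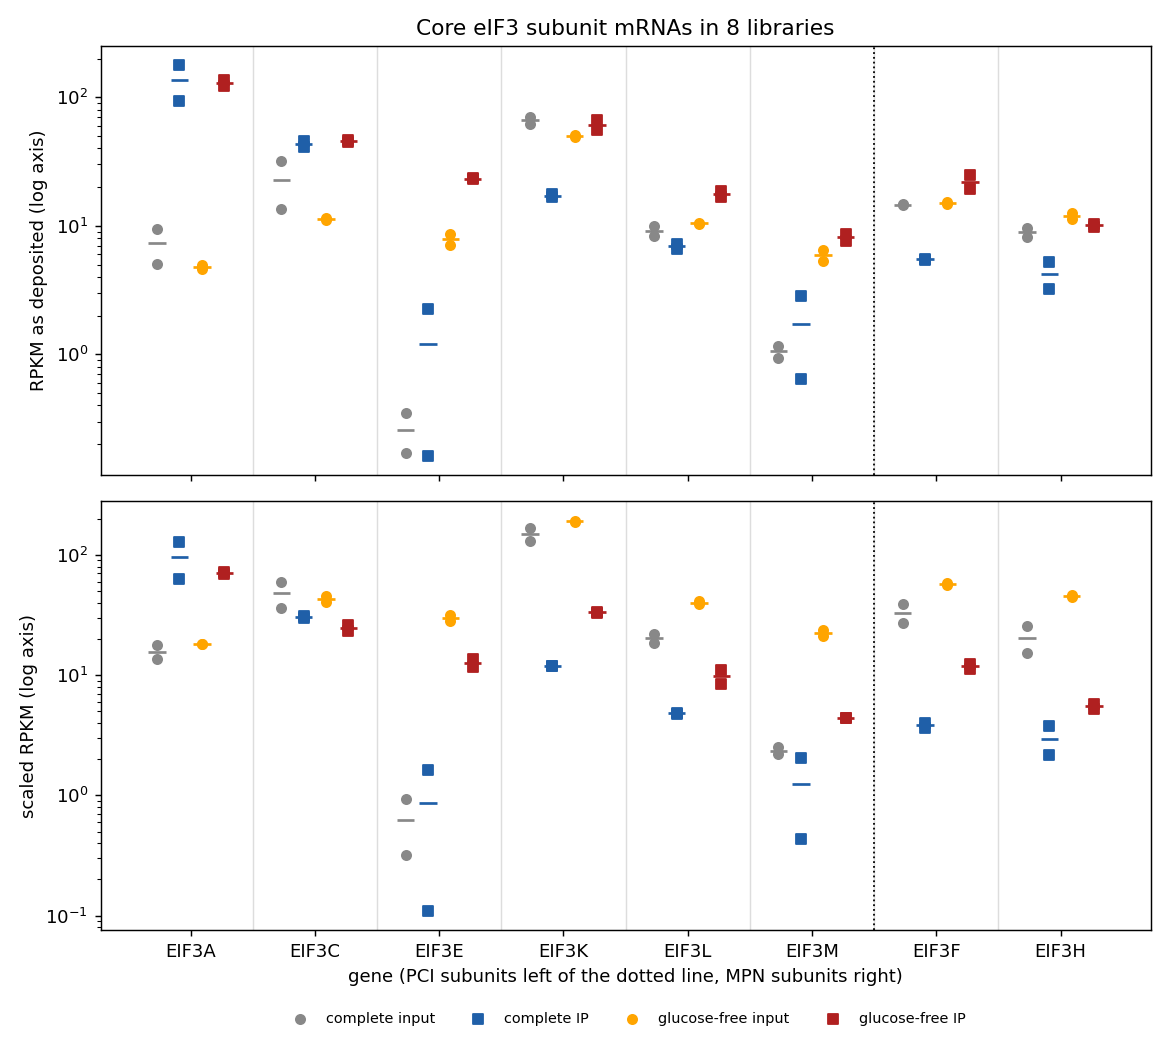
RPKM as deposited (upper) and scaled RPKM (lower) of the 8 core eIF3 mRNAs on log axes, with 1 point per library (circles input, squares IP) and a bar at the mean of each group of 2. EIF3A lies far higher in the IPs than in the inputs on both scales. Without glucose EIF3C, EIF3E, EIF3F, EIF3K, EIF3L and EIF3M lie below their inputs only after scaling, and EIF3H on both scales. EIF3E and EIF3M lie lowest in the complete libraries.

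The first comparison asked which members were over- or under-represented in RNA bound by eIF3d in fed cells. EIF3A was the member that was higher in the IP. Its scaled RPKM was 13.5 and 17.8 in the inputs and 63.1 and 127 in the IPs, and the groups did not overlap. The log2 change was 2.45 ± 0.36 (SE; limma, adjusted p = 0.000494), at the 99.09th percentile of all tested genes. Members called higher numbered 1 of 8, where 30.0% of all tested genes were called higher, and members called lower 4 of 8, where 30.1% of all were. In either direction it was 5 of 8 members and 60.2% of all genes.

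The 4 members lower in the IP included both MPN subunits. EIF3K had the lowest ratio, with scaled RPKM of 166 and 131 in the inputs and 11.9 and 12.0 in the IPs. Its log2 change was -3.52 ± 0.29 (SE; adjusted p = 3.22e-05), an 11.5-fold lower level. EIF3F, an MPN subunit, went from 39.1 and 27.1 to 3.65 and 4.0, a log2 change of -2.80 ± 0.27 (adjusted p = 5.57e-05). EIF3H, the other MPN subunit, went from 25.5 and 15.4 to 2.17 and 3.77, a log2 change of -2.42 ± 0.31 (adjusted p = 0.000230). EIF3L, which binds EIF3K in the complex, went from 22.2 and 18.7 to 4.88 and 4.73, a log2 change of -1.88 ± 0.25 (adjusted p = 0.000262). In each of the 4 the input and IP libraries lay apart, as they also did for EIF3C and EIF3M, which were not called. The share of all tested genes whose libraries lay apart is not given here. EIF3L lost its call on RPKM as deposited, with a log2 change of -0.35 and adjusted p = 0.280, where the median of all genes shifted by 1.11.

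The other 3 members did not pass. EIF3C, the PCI subunit that pairs with EIF3A, was at 36.2 and 59.4 in the inputs and 30.8 and 29.6 in the IPs, a log2 change of -0.61 (95% interval -1.31 to 0.10, adjusted p = 0.121). Its input replicates were far apart, and without complete input replicate 1 it was called lower, at -0.96 (adjusted p = 0.0120). On RPKM as deposited and after quantile normalization it was instead called higher, at 1.02 and 0.91. EIF3E, the PCI subunit to which EIF3D attaches, was at 0.926 and 0.320 against 0.109 and 1.62, and the groups overlapped. EIF3M was at 2.52 and 2.19 against 0.435 and 2.03, a log2 change of -0.68 (adjusted p = 0.0989). Without complete IP replicate 2, EIF3M was called lower at -1.19 (adjusted p = 0.00336), and EIF3E changed sign to -0.50 without passing. The difference between the replicates of the complete IP followed coding GC content across 8316 nuclear protein-coding genes with r = -0.594, and EIF3E and EIF3M have the lowest GC of the members. With the coding GC trend of each library removed, EIF3M was at -0.57 (adjusted p = 0.0438) and EIF3E at 0.23 without passing. The median of all genes in that fit was 0.318, so EIF3E lay below the median gene there.

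Without glucose EIF3A was again the member higher in the IP. Its scaled RPKM was 18.3 and 18.2 in the inputs and 71.8 and 68.8 in the IPs. The log2 change was 1.89 ± 0.36 (SE; adjusted p = 0.00190), at the 95.32nd percentile. EIF3A kept its direction and its call in both media under every alternative that was run, RPKM as deposited included. Members called higher numbered 1 of 8, against 28.0% of all tested genes, and members called lower 6 of 8, against 32.1% of all. In either direction it was 7 of 8 members and 60.0% of all genes.

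Among the 6 lower members, EIF3H had the lowest ratio in this medium. It was at 44.7 and 45.9 in the inputs and 5.76 and 5.20 in the IPs, a log2 change of -2.84 ± 0.31 (adjusted p = 0.000102). EIF3K went from 193 and 188 to 32.7 and 33.8, a log2 change of -2.48 ± 0.29 (adjusted p = 0.000138). EIF3F went from 58.4 and 56.3 to 11.2 and 12.5, a log2 change of -2.18 ± 0.27 (adjusted p = 0.000173). All 3 of these were thus lower in every IP library than in every input library of their medium. The same held for EIF3C, EIF3E, EIF3L and EIF3M, of which EIF3C was not called. EIF3M went from 21.0 and 23.9 to 4.44 and 4.37, a log2 change of -2.12 ± 0.33 (adjusted p = 0.000562), and EIF3L from 41.0 and 39.0 to 11.0 and 8.52, a log2 change of -1.94 ± 0.25 (adjusted p = 0.000209). EIF3E was at 28.0 and 31.8 against 13.7 and 11.6, a log2 change of -1.18 ± 0.38 (adjusted p = 0.0244). EIF3C was the member that did not pass, at 45.6 and 40.8 against 26.3 and 23.3, a log2 change of -0.78 (95% interval -1.48 to -0.07, adjusted p = 0.0559).

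These lower values depend on the scaling. On RPKM as deposited, where the median of all genes shifted by 1.58, the members called were EIF3A, EIF3C, EIF3E and EIF3L, all 4 higher, and none was lower. There EIF3F, EIF3K and EIF3M changed sign without passing. EIF3C passed, still lower, without any 1 of the 4 libraries of complete medium. EIF3E lost its call in each fit without 1 of the glucose-free libraries, with log2 changes of -1.29 to -1.07 and adjusted p of 0.0570 to 0.116, and also with a pseudocount of 0.1 (-1.24), with voom (-1.24), without a filter (-1.18), with the coding GC trend removed (-0.60) and with other scalings. EIF3K lost its call under quantile normalization at -0.21. In the fit with the coding GC trend removed, the median of all genes was 0.356.

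**Figure D2:**
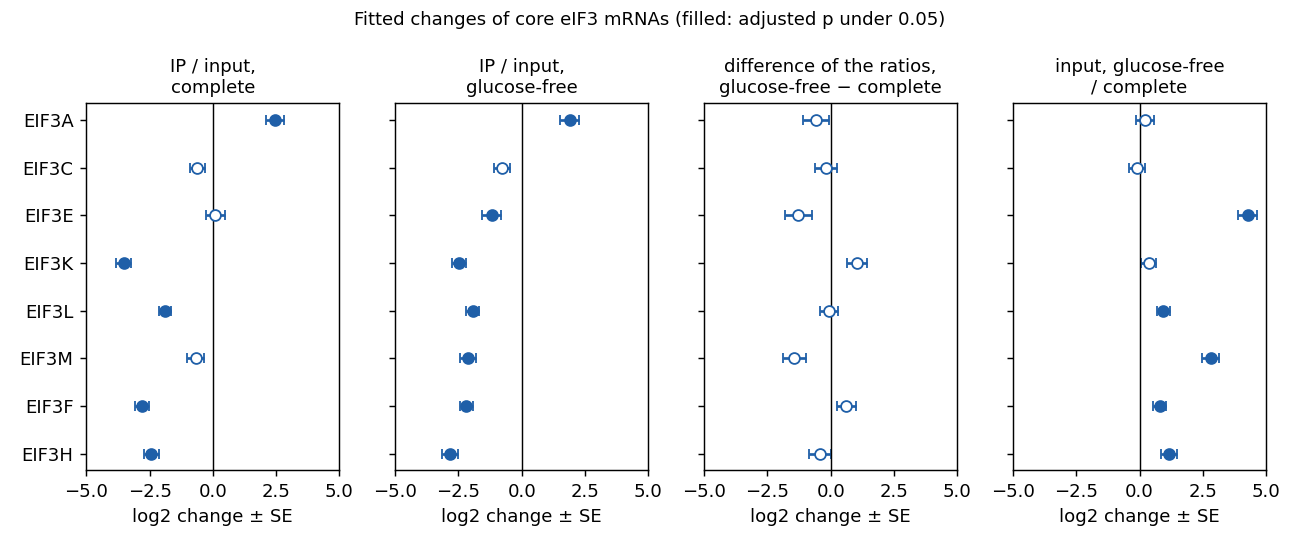
Fitted log2 changes of the 8 core eIF3 mRNAs (points, bars ± 1 SE) in the 4 comparisons, from scaled RPKM, with filled points where the adjusted p was under 0.05. EIF3A lies to the right of 0 in both IP comparisons at 2.45 and 1.89, EIF3F, EIF3H, EIF3K and EIF3L lie at -1.88 or below in both, no point is filled for the difference of the ratios, and EIF3E at 4.28 and EIF3M at 2.81 lie farthest right between the inputs.

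The difference of the IP to input ratios between media was then tested for each member, the comparison closest to the study's question of whether eIF3d binding shifts when glucose is gone. No member passed in limma, where 4.52% of all tested genes did, 1.90% with a higher and 2.62% with a lower ratio without glucose. At an unadjusted p under 0.05 there were 3: EIF3K with a difference of 1.04 ± 0.41 (SE, log2; adjusted p = 0.152), EIF3E with -1.28 ± 0.54 (adjusted p = 0.173) and EIF3M with -1.43 ± 0.46 (adjusted p = 0.103). With voom weights on the recovered reads 0 passed and 1 had an unadjusted p under 0.05. The 95% intervals of the other members were -1.73 to 0.60 for EIF3A, -1.17 to 0.83 for EIF3C, -0.24 to 1.47 for EIF3F, -1.41 to 0.58 for EIF3H and -0.85 to 0.73 for EIF3L.

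Single libraries decided the calls at the edge of this comparison. Without complete IP replicate 1, EIF3E and EIF3M passed, at -1.87 and -1.96 (adjusted p = 0.0160 and 0.00747). Without complete input replicate 2, EIF3K passed at 1.21 (adjusted p = 0.0444). EIF3K also passed on RPKM as deposited (2.17), after quantile normalization (2.13) and with centring after the log (1.46), and EIF3F passed in the first and second of these at 1.76 and 1.35. Across 8316 coding genes the ratio difference followed coding GC with r = 0.447. With that GC trend taken out of each library, EIF3M was at -0.98 (adjusted p = 0.102), EIF3E at -0.84 (adjusted p = 0.190) and EIF3K at 1.11 (adjusted p = 0.105).

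The last comparison set the inputs against each other and concerns the mRNA levels themselves. In bulk RNA a rise in every cell and a larger rise in some cells cannot be told apart. It shares the inputs with the comparisons above. EIF3E rose most without glucose, from 0.926 and 0.320 to 28.0 and 31.8 scaled RPKM. Its log2 change was 4.28 ± 0.38 (SE; adjusted p = 0.000125), at the 98.94th percentile, and the added pseudocount of 1 understates so large a change from so low a level. EIF3M rose from 2.52 and 2.19 to 21.0 and 23.9, a log2 change of 2.81 ± 0.33 (adjusted p = 0.000528), at the 97.40th percentile. Both rises passed in every alternative that was run, RPKM as deposited included. By recovered reads, EIF3E had 66 and 20 in the complete inputs and 1455 and 2256 without glucose, and EIF3M had 222 and 169 against 1351 and 2097. Members called higher numbered 5 of 8, where 18.4% of all tested genes were called higher, and 0 were lower, where 16.6% of all were. In either direction it was 35.0% of all genes.

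The rises of the other 3 were smaller and less firm. EIF3H, the MPN subunit, rose from 25.5 and 15.4 to 44.7 and 45.9, a log2 change of 1.15 ± 0.31 (adjusted p = 0.0214). EIF3L rose from 22.2 and 18.7 to 41.0 and 39.0, a log2 change of 0.94 ± 0.25 (adjusted p = 0.0196). EIF3F rose from 39.1 and 27.1 to 58.4 and 56.3, a log2 change of 0.80 ± 0.27 (adjusted p = 0.0462). Libraries of the media did not overlap for these 3, nor for EIF3K and EIF3A, which were not called. EIF3H, EIF3L and EIF3F lost their calls without either 1 of the glucose-free inputs. They also lost them after quantile normalization, with centring after the log and on RPKM as deposited. EIF3H and EIF3F also lost theirs without a filter and without complete input replicate 2. EIF3F lost its call further with the replicate number as a block (adjusted p = 0.0621), with a pseudocount of 0.1 (0.0501), with voom (0.0652), with only the groups compared (0.102) and without either 1 of the glucose-free IPs (0.101 without replicate 1). EIF3K (166 and 131 against 193 and 188) and EIF3A (13.5 and 17.8 against 18.3 and 18.2) did not pass, with log2 changes of 0.36 and 0.22, and EIF3C overlapped between the media at -0.10.

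Both members with the large rise have AT-rich coding sequences. EIF3E has 39.8% GC and EIF3M 40.8%, at the 2.31st and 4.12th percentiles of 8316 nuclear protein-coding genes, while the other members have 46.3% (EIF3H) to 56.5% (EIF3F). Over those genes the input change followed coding GC with r = -0.340, as a description across genes that share the libraries. It also followed log2 coding length, with r = -0.368, a trend that no fit removed. With the GC trend of each library removed, EIF3E rose by 3.33 and EIF3M by 1.97 (log2; adjusted p = 5.44e-05 and 0.000429), and the same 5 members passed. The median of all genes in that fit was -0.184. With trends on exon length and GC both removed, the values were 3.61 and 2.36, again with the same 5 members past the threshold.

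**Figure D3:**
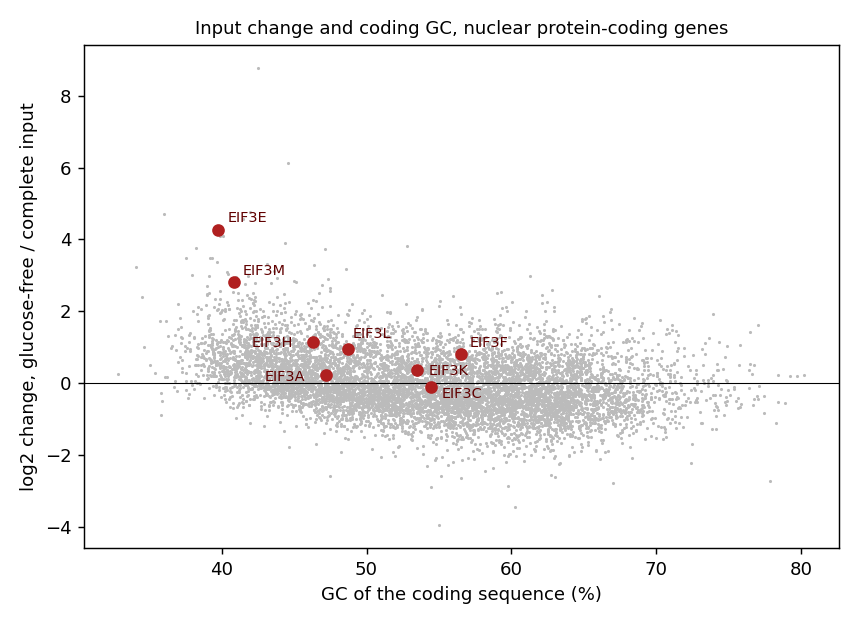
The log2 change of the input, glucose-free against complete medium, plotted against the GC content of the coding sequence (%) for 8316 nuclear protein-coding genes (grey) and the 8 core eIF3 mRNAs (red, named). EIF3E and EIF3M lie at the low-GC end at 4.28 and 2.81, above most genes of like GC, and the other members lie between -0.10 and 1.15.

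The IP to input ratios of the members followed their coding lengths in part. The coding sequence of EIF3A is 4146 bases long, at the 93.4th percentile of coding genes, followed by EIF3C with 2739, EIF3L with 1692, EIF3E with 1335, EIF3M with 1122, EIF3F with 1071, EIF3H with 1056 and EIF3K with 654, at the 18.1st percentile. In complete medium EIF3A, the longest, had the highest ratio and EIF3K, the shortest, the lowest. Over all 8316 coding genes the log2 ratio followed log2 coding length with r = 0.583 in complete medium and 0.501 without glucose. Replicates of 1 group also differed along coding length. For replicate 2 minus replicate 1, r was 0.455 in the complete input and -0.342 in the glucose-free IP. It was -0.0044 in the complete IP and -0.0607 in the glucose-free input. No fit removed a trend on coding length. The length trend that was removed used summed exon length, which is 9431 bases for EIF3F and 6434 for EIF3H. It therefore does not show what remains after correction for coding length. With each library's trends on exon length and GC removed, EIF3A was at 2.06 and 1.87 in the media and EIF3K at -2.79 and -1.85. EIF3F was at -3.40 and -2.83 and EIF3H at -2.74 and -2.76, and all of these were past the threshold. EIF3C then passed as lower too, at -0.89 and -1.09, and so did EIF3M at -1.25 and -2.23, so that 6 and 7 members were lower.

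**Figure D4:**
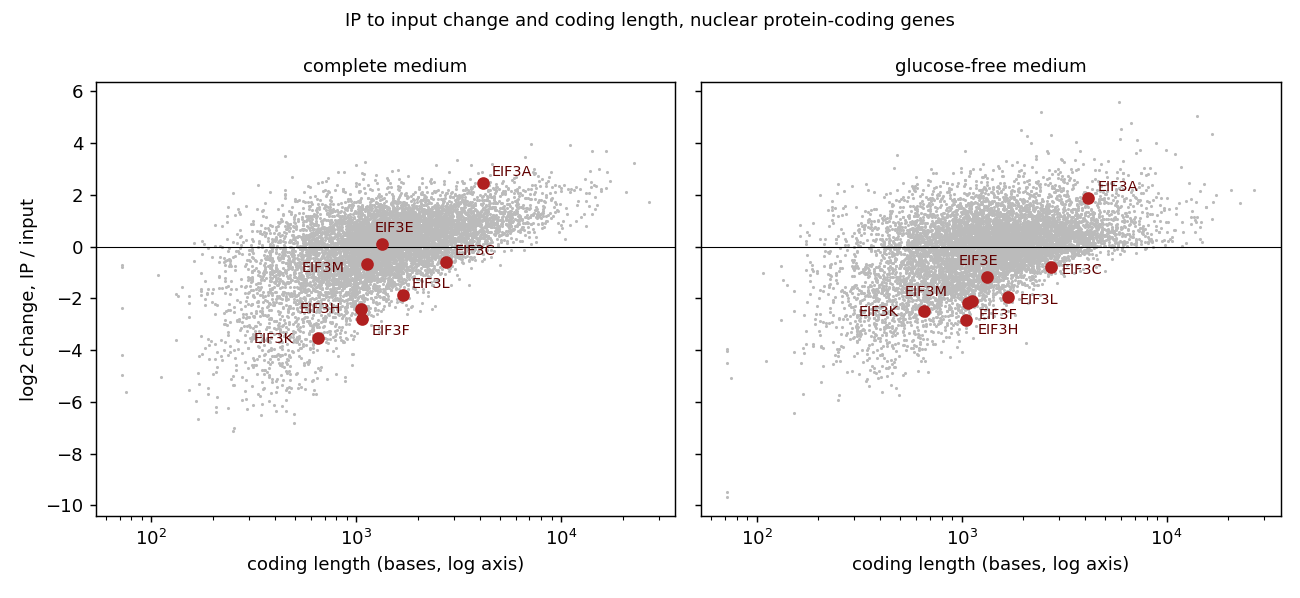
The log2 change of IP against input in complete (left) and glucose-free medium (right), plotted against coding length (bases, log axis) for 8316 nuclear protein-coding genes (grey) and the 8 core eIF3 mRNAs (red, named). The grey points rise with length (r = 0.583 and 0.501), EIF3A lies at the upper right, and EIF3F, EIF3H and EIF3L lie below most genes of like length in both media.

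The members differed in their course over the 8 libraries, here as correlations of log2(scaled RPKM + 1) that describe these libraries and share their 4 groups. EIF3F, EIF3H, EIF3K and EIF3L went together, with r from 0.962 to 0.989. EIF3M was closest to EIF3E with r = 0.905, but also went with EIF3L (0.809), EIF3H (0.789) and EIF3F (0.763), while EIF3E had r from 0.378 to 0.546 with the first 4. EIF3A went against all the others, with r from -0.943 with EIF3K to -0.114 with EIF3E, and EIF3C was between, from -0.771 with EIF3A to 0.699 with EIF3K. Against the mean of the 8 members, EIF3M had r = 0.948, EIF3L 0.947, EIF3H 0.927, EIF3F 0.926, EIF3K 0.868, EIF3E 0.773, EIF3C 0.460 and EIF3A -0.692. Each member is itself part of that mean, so its r is partly built in. The tested genes most like that mean over the 8 libraries were PPA1 (r = 0.9987), GMNN (0.9967), U2AF1L5 and COQ3 (both 0.9952) and ATP5PB (0.9946).

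The other parts of the translation machinery and the other complexes built of PCI and MPN proteins were described beside the core. Over all tested genes, 30.0% were called higher and 30.1% lower in the complete IP, and 28.0% and 32.1% in the glucose-free IP. Of the 5 other eIF3 subunits, 1 was higher and 2 were lower in the complete IP, and 0 and 3 in the glucose-free IP. The highest in complete medium was EIF3D at 0.90, with an adjusted p of 0.0417, and the lowest in both was EIF3I, a WD-repeat subunit, at -3.45 and -3.19. Their median log2 change was -0.16 and -0.79, against -1.28 and -2.03 in the core and 0.03 and -0.02 over all tested genes. The proteasome lid, whose subunits carry the same domains, had 7 of 8 lower in each medium and none higher, with medians of -1.10 and -1.26 and PSMD8, a PCI subunit, lowest at -2.78 and -3.29. Of the COP9 signalosome 6 of 8 tested genes were lower in each medium, and COPS7B was higher without glucose at 1.06. Of 15 tested among 19 other initiation factors, 4 were higher and 2 lower in complete medium and 5 and 4 without glucose, with the scaffold EIF4G1 highest at 2.14 and 2.37 and EIF6 lowest at -3.25 and -2.98.

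Between the inputs, 2 of the 5 other eIF3 subunits rose (EIF3G by 1.18 and EIF3J by 0.97), 4 of 8 lid subunits rose and 3 of 8 COP9 subunits rose, with none of these lower, where 18.4% of all tested genes were called higher and 16.6% lower. Medians were 0.66, 0.57 and 0.57, against 0.87 in the core and -0.04 over all tested genes. Among the initiation factors 3 rose and 2 fell, from EIF1, the start codon selection factor, at 2.80 to EIF4G1 at -1.61. COPS4, a PCI subunit of the signalosome, rose by 2.78. It was the gene of these lists whose IP to input ratio passed the test of a difference, where 4.52% of all tested genes did. Its difference was -2.08 (limma, adjusted p = 0.00791). That call was lost on RPKM as deposited (-0.55, adjusted p = 0.187), with voom (-1.85, adjusted p = 0.0804) and without glucose-free IP replicate 2 (-1.98, adjusted p = 0.0544).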

How the data were processed

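The authors deposited RPKM per gene in 2 tables, 1 per medium, for 8 libraries. The submitters' processing notes name GRCh38, HISAT2, SAMtools and cutadapt. Which program counted reads, with which gene models, with or without strand, and what became of multiply placed reads is not given in the sources used here. Exon lengths of GENCODE 29 turned 97.5% to 98.0% of low values into whole reads (within 0.02, up to 50 reads), which gave the library totals; the tables held 0 unused library columns. The test covered genes whose mean RPKM reached 1. RPKM was scaled to 1 median per library before log2(value + 1), since centring after the log was known from an earlier account to shift low genes. One model of all 4 groups was fitted in limma (version 3.58.1, R 4.3.3; prior variance with a trend on level), and the threshold was 0.05 for p adjusted by Benjamini-Hochberg over all 10100 genes. An exact permutation test of 2 against 2 libraries cannot go below p = 0.333. Fold changes on this scale understate changes of low genes.

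The members and all gene lists were chosen with earlier results of these data known. Named were all 8 members, copies above 1 RPKM, EIF3D, the highest and lowest gene of each list and the 5 genes most like the members' mean. Other genes of the lists named beside these (EIF3G, EIF3J, COPS4) were picked after their values were seen. The fit was checked on simulated reads with known changes. It missed most or all of the smallest changes simulated in each comparison, and more of the larger ones in the difference of the ratios than elsewhere, so that an absence of calls there does not show equal ratios. Alternatives were other scalings, a pseudocount of 0.1, no filter, only the groups compared, the replicate number as a block, voom on recovered reads, removal of length and GC trends, and each library left out; adding the reads of copies and removing the coding GC trend alone were chosen after seeing the data. The alternatives were run for the members and, added after its value was seen, for COPS4, not for the other genes named. Intervals cover counting error only where they are Poisson intervals.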

Additional observations from a re-analysis of the deposited data

Results flagged for a closer look

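COPS4, a PCI subunit of the COP9 signalosome listed beside the core, was the named gene whose IP to input ratio passed a test of the difference between the media. It was 1 of 8 tested COP9 genes, where 4.52% of all tested genes passed. Of the other lists, 0 of 5 other eIF3 subunits, 0 of 8 lid subunits and 0 of 15 initiation factors passed. The difference was -2.08 ± 0.27 (SE, log2; limma, adjusted p = 0.00791), from log2 ratios of -0.73 in complete medium and -2.81 without glucose. Its scaled RPKM was 1.3 and 1.51 in the complete inputs against 0.353 and 0.552 in the IPs, and 14.8 and 16.3 without glucose against 1.5 and 1.22 in the IPs. The call was lost on RPKM as deposited (-0.55, adjusted p = 0.187), with voom (-1.85, adjusted p = 0.0804) and without glucose-free IP replicate 2 (-1.98, adjusted p = 0.0544), and held in the other alternatives run for the members, at -2.17 to -1.26. The values of complete medium rest on 46 to 58 reads per library.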

How the results depend on the processing

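Scaling moved the most results. On RPKM as deposited the median of all genes shifted by 1.11, 1.58, 0.68 and -0.33 (log2) in the complete IP, the glucose-free IP, the ratio difference and the inputs. Members called higher were then 2, 4, 2 and 2, and 0 were lower in the glucose-free IP. Signs changed in the complete IP for EIF3C (1.02) and EIF3M (0.29), in the glucose-free IP for EIF3C (1.91), EIF3E (1.45), EIF3F (0.50), EIF3K (0.29), EIF3L (0.71) and EIF3M (0.40), in the ratio difference for EIF3A (0.47), EIF3C (0.89), EIF3E (0.82), EIF3H (0.72), EIF3L (1.06) and EIF3M (0.11), and between inputs for EIF3A (-0.46) and EIF3K (-0.39). Quantile normalization gave 2 members higher in the complete IP, 2 in the ratio difference and 2 between inputs, and turned EIF3C (0.91 and 0.70 in the IPs), EIF3H (0.24) and EIF3L (0.63) in the ratio difference, and EIF3A (-0.17) and EIF3K (-0.43) between inputs. Centring after the log gave 1 member higher in the ratio difference and 2 between inputs, and turned EIF3E in the complete IP (-0.58), EIF3C (0.18), EIF3E (0.11), EIF3H (0.011) and EIF3L (0.35) in the ratio difference and EIF3A between inputs (-0.052). Without a filter 3 members were higher between inputs. The cause was not tested. Smaller reversals, all of values that passed in neither fit, were EIF3E in the complete IP with a pseudocount of 0.1 (-0.13), voom (-0.53) and length and GC trends removed (-0.29). In the ratio difference they were EIF3L (0.023, 0.036 and 0.21 in the same settings, 0.27 with the coding GC trend removed) and EIF3H (0.0066 with that trend removed), and between inputs EIF3A (-0.054 with it removed) and EIF3C (0.35 with both trends removed). With the coding GC trend removed, the median of all genes between inputs was -0.184, so EIF3A stayed above the median gene. Leaving out each library gave 0 to 1 higher and 0 to 2 lower members in the ratio difference and 2 to 5 higher between inputs, EIF3E in the complete IP at -0.50 to 0.69, EIF3C and EIF3L in the ratio difference at -0.52 to 0.18 and -0.23 to 0.089, and EIF3C between inputs at -0.45 to 0.25. Over 600 values of single members 499 kept direction and side of the threshold, 44 changed sign, 38 lost a call and 19 gained one.

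The calls over all genes also moved by over 1.5 times. In the ratio difference the 457 calls became 3270 on RPKM as deposited, 1563 after quantile normalization, 1491 with centring after the log, 755 with length and GC trends removed, 223 with a pseudocount of 0.1, 140 with voom and 91 without a filter. Between inputs the 3533 calls became 1828, 1761 and 1275 in the first 3 of these settings. Without complete IP replicate 1 the ratio difference had 2573 calls, without complete input replicate 2 it had 1209, and without a glucose-free library 68 to 155. Without glucose-free input replicate 1 or 2 the inputs had 1140 and 1081. The split of all calls into higher and lower was 3033 and 3044 in the complete IP, 2825 and 3240 in the glucose-free IP, 192 and 265 in the ratio difference and 1856 and 1677 between inputs. On RPKM as deposited it was 6426 and 1245, 8250 and 554, 2959 and 311, and 517 and 1311, and with centring after the log it was 1812 and 3736 in the glucose-free IP and 882 and 393 between inputs. With the replicate number as a block (replicate block), 4 members were higher between inputs, EIF3F losing its call, and the other counts were unchanged. The differences between replicates 2 and 1 correlated between groups with r = -0.102 to 0.129. Those differences also followed coding GC in the complete IP (r = -0.594), the glucose-free input (-0.306) and the glucose-free IP (0.343). In the complete input they hardly did (-0.0388), and followed log2 coding length with r = 0.455. A low r between groups therefore cannot show whether same-numbered libraries are paired. Depth limits EIF3E most, which has 20 to 286 reads in the complete libraries. The difference of ratios needs all 4 groups, so no fit of fewer groups was run for it.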
